A study of Homo sapiens with 9 samples.

Results

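PC3 cells, a human prostate cancer line that was derived from a bone metastasis, were compared between growth alone and growth with mouse osteoblasts (OB). The comparison pooled the 7 co-culture arrays against the 2 arrays of untreated PC3 cells, which together are all 9 arrays of the series. Members were taken from the sample labels: 2 arrays with OB SostKO as partner cells, 2 arrays with rhDKK1 (100 ng/ml) beside OB WT, 3 arrays with rhSOST (100 ng/ml) beside OB WT, and 2 arrays without osteoblasts in the same DMEM/F12 medium. OB SostKO came from mice lacking Sost and OB WT from wild type mice, both as primary cultures of the skull bones of pups a few days old, and they were held on culture inserts above the PC3 cells for 48 h. PC3 RNA was read on U133 Plus 2.0 arrays (Affymetrix), and arrays that share a group are described as biological replicates, all from 1 cell line. All 3 co-cultures share the presence of osteoblasts, and the OB SostKO arrays had no added protein. No array held PC3 cells with OB WT alone, so within the rhDKK1 and rhSOST arrays OB WT and the added protein cannot be told apart. Fewer PC3 cells of a kind and less RNA per cell cannot be told apart in such bulk RNA.

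Sclerostin, the product of SOST, and DKK1 are secreted inhibitors that bind the LRP5 and LRP6 co-receptors and block Wnt signaling, and osteoblasts are both a source and a target of Wnt ligands. NF-κB is a family of transcription factors held in the cytoplasm by inhibitors such as NFKBIA; once released, it binds κB sites in promoters of cytokines, chemokines and its own inhibitors. Immediate early genes are switched on within minutes of growth factor or stress signals. KRAB zinc finger genes, many of them clustered on chromosome 19, encode repressors that silence transposable elements.

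The deposited values are log2 signals, and array medians lay between 5.45 and 5.52. The first principal component held 39.1% of the variance and put the untreated arrays at -22.5 and -16.9, 6 co-culture arrays between 6.71 and 8.86, and rhSOST array 3 at -7.78, between the groups. The third component (15.4%) split arrays inside every group, for example 3.13 and -9.64 for the untreated arrays and 8.40 and -6.59 for OB SostKO. Spiked poly-A control transcripts, put in at labeling, averaged 11.32 ± 0.48 without osteoblasts (log2 signal, SD, n = 2) and 6.65 ± 0.28 with them (SD, n = 7; p = 0.0278 in a two-sided exact permutation test, the lowest value possible with 36 splits). The 18S rRNA signal was 11.68 and 9.64 on the untreated arrays, at least 12.94 on 6 co-culture arrays and 8.71 on rhSOST array 3. The ACTB 3′ minus 5′ signal was 0.69 ± 0.27 (SD, n = 2) and 1.38 ± 0.33 (SD, n = 7; p = 0.0278 in the same exact test). The GAPDH 3′ minus 5′ signal was 0.19 ± 0.07 (SD, n = 2) and 0.20 ± 0.10 (SD, n = 7; p = 0.917 in the same exact test), and 18S signal did not separate the groups (exact p = 0.0833). The spike-ins and the ACTB difference do move with the groups, so preparation of the arrays and co-culture cannot be told apart in any difference given here.

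**Figure D1:**
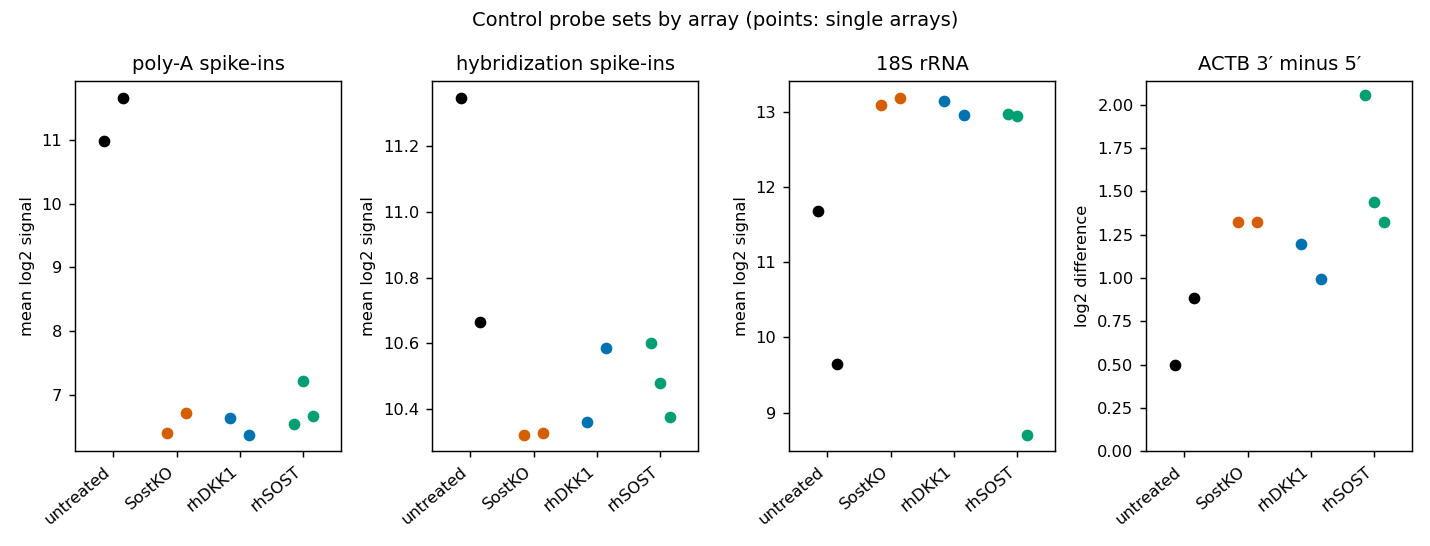
Log2 signal of control probe sets on each array (points), by group: the mean of the poly-A spike-ins, the hybridization spike-ins and 18S rRNA, and the ACTB 3′ minus 5′ difference. The untreated arrays stand above every co-culture array in both kinds of spike-in, and rhSOST array 3 has the lowest 18S signal, 8.71.

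Of 9 PC3 markers, 8 did not pass the test and PSCA, the lowest of them in signal, fell by 0.42 (adjusted p = 0.00929). KRT18, KRT19 and EPCAM had mean log2 signals of 13.15, 12.52 and 13.21 on the untreated arrays and 13.34, 12.57 and 13.23 on the co-culture arrays, and KRT8 and CDH1 had 12.06 and 11.82 against 11.95 and 11.80. Of 18 osteoblast markers with a probe set, 8 passed the signal filter (40th percentile of the array on 2 arrays or more) and 0 changed. The probe sets are for human transcripts and the osteoblasts were mouse cells, so these markers say little of osteoblast RNA in the samples. The mineralization markers ALPL and IBSP stood at 4.76 and 5.05 on the co-culture arrays, and SPP1, COL1A2 and POSTN at 2.85, 4.497 and 3.03, none of them past the filter except ALPL and IBSP. RUNX2, a transcription factor of the lineage, and COL1A1 stood higher, at 8.89 and 9.03 on the untreated and 8.98 and 9.19 on the co-culture arrays. The summed level of the 8 measured markers, as a mean log2 signal, was 6.31 to 6.40 on the untreated and 6.23 to 6.43 on the co-culture arrays. Of 11 measured stromal markers, PDGFRA and COL3A1 rose and FBN1 fell, with a list mean of 6.49 to 6.70 and 6.64 to 6.73. COL3A1 lay close to the filter, with means of 4.76 on the untreated and 5.11 on the co-culture arrays. None of 5 macrophage markers changed, and of 6 endothelial markers ESAM fell, with -0.21 on the log2 scale and -0.16 (adjusted p = 0.343) without untreated array 1. Without untreated array 2 neither stromal rise was called.

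To show the sequences beside the cytokine results, promoter windows of IL6, CXCL1, CXCL2 and CXCL3 are given, because these are the 4 of the 12 largest falls whose window holds the κB core GGANTTTCC on either strand (9 of the 12 have a window, and 0 of 8 windows of the 12 largest rises hold it). IL6 is a pleiotropic cytokine of bone and tumor cells, and CXCL1, CXCL2 and CXCL3 are neutrophil chemokines. Each window runs from 250 bases before to 50 bases after the start, 5′ to 3′ in the direction of transcription, from RefSeq on GRCh38.p14, with the κB core in capitals. IL6 lies on the plus strand at chr7:22726950-22727249, CXCL1 on the plus strand at chr4:73869143-73869442, and CXCL2 and CXCL3 on the minus strand at chr4:74099146-74099445 and chr4:74038640-74038939.
IL6: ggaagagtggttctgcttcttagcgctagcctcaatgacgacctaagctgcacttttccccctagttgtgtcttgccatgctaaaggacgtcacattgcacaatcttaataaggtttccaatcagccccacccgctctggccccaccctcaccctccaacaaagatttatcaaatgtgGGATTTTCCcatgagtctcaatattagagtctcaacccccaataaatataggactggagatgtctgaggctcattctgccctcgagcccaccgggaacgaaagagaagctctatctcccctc
CXCL1: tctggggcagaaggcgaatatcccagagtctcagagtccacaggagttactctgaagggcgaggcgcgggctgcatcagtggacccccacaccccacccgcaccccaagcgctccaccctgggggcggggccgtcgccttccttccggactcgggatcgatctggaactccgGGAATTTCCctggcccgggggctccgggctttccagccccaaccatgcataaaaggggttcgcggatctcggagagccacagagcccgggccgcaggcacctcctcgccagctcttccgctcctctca
CXCL2: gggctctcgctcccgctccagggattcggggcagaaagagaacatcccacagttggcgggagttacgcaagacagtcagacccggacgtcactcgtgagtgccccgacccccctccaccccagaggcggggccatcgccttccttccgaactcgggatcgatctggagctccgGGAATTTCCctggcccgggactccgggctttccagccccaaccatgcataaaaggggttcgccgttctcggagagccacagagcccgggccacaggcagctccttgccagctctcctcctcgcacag
CXCL3: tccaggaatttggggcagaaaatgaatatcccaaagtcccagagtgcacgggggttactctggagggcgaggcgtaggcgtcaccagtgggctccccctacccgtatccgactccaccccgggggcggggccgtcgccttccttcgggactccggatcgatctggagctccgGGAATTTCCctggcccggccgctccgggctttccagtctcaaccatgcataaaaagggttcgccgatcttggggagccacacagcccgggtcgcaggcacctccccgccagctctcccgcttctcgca
The core begins at position -72 in IL6, -78 in CXCL1, -77 in CXCL2 and -78 in CXCL3, counted from the start base as 0, always on the transcribed gene's own strand. The 3 chemokine windows hold the same 9-letter match, GGAATTTCC, and IL6 holds GGATTTTCC. Of 35116 windows of this length, 1.64% hold the core. Counted by gene, 272 of 11850 tested genes with a window (2.3%) hold it. Of 19 members of the NF-κB list that fell, 18 have a window and 12 of these hold the core; of the 11 that did not pass, 6 have a window and 1 holds it. The list was made of NF-κB targets and cytokines, so a high share of cores is in part built into it. These are counts of letters and say nothing of binding.

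Expression of 14869 genes was tested. With osteoblasts, 1305 genes (8.78%) rose and 812 (5.46%) fell at an adjusted p under 0.05 in limma, and 4344 had an unadjusted p under 0.05. The shares of 8.78% and 5.46% are those to set beside each list count below. Some genes stand in several lists, among them CCN1, CCN2, JUNB, MYC, BMP4, PPP1R15A and CDKN1A, so the list counts are not separate from each other. Most differences were small. Of the genes that rose, 18 did so by at least 2-fold, 145 by 1.5-fold to 2-fold, 866 by 1.2-fold to 1.5-fold and 276 by less, with a median of 1.28-fold. Of those that fell, 16, 99, 525 and 172 lay in these ranges, with a median of 1.27-fold. The 7 and the 2 arrays did not overlap for 1280 of the genes that rose and 799 of those that fell, where 15.4% of all genes tested lay wholly above and 11.3% wholly below. Over all 54613 probe sets without a filter, 2110 (3.86%) rose and 1546 (2.83%) fell. The counts rested on the untreated arrays. With untreated array 1 left out, 426 genes rose and 265 fell. Without untreated array 2, 812 rose and 507 fell, and without rhSOST array 3, 1711 and 1249. Without both rhDKK1 arrays they were 706 and 382. Of 691 genes called without untreated array 1, 621 were also called on all arrays, which is 89.9% of the former and 29.3% of the latter. For untreated array 2 these were 1029 of 1319 genes (78.0% and 48.6%), and for rhSOST array 3, 2100 of 2960 (70.9% and 99.2%).

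A change was counted as moderate and common to every co-culture when the gene passed the pooled test at under 2-fold, each co-culture mean lay at least 1.2-fold from untreated PC3 cells in the same direction, and no array overlapped. This held for 793 genes that rose (5.33%) and 469 that fell (3.15%). With each mean at least 1.5-fold away, 87 and 65 genes were left. No called gene lay on the other side of untreated PC3 cells in any co-culture mean; the 3 differences share the untreated arrays. Tested among themselves, without use of the untreated level, the 3 co-cultures differed at 0 genes at an adjusted p under 0.05 in limma's F test and at 298 at an unadjusted p under 0.05, where 743.45 would be expected if no gene differed, with a smallest adjusted p of 0.9999. The groups held 2 or 3 arrays, so the count does not show that the co-cultures were alike. In this sense 400 genes rose and 245 fell without untreated array 1.

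**Figure D2:**
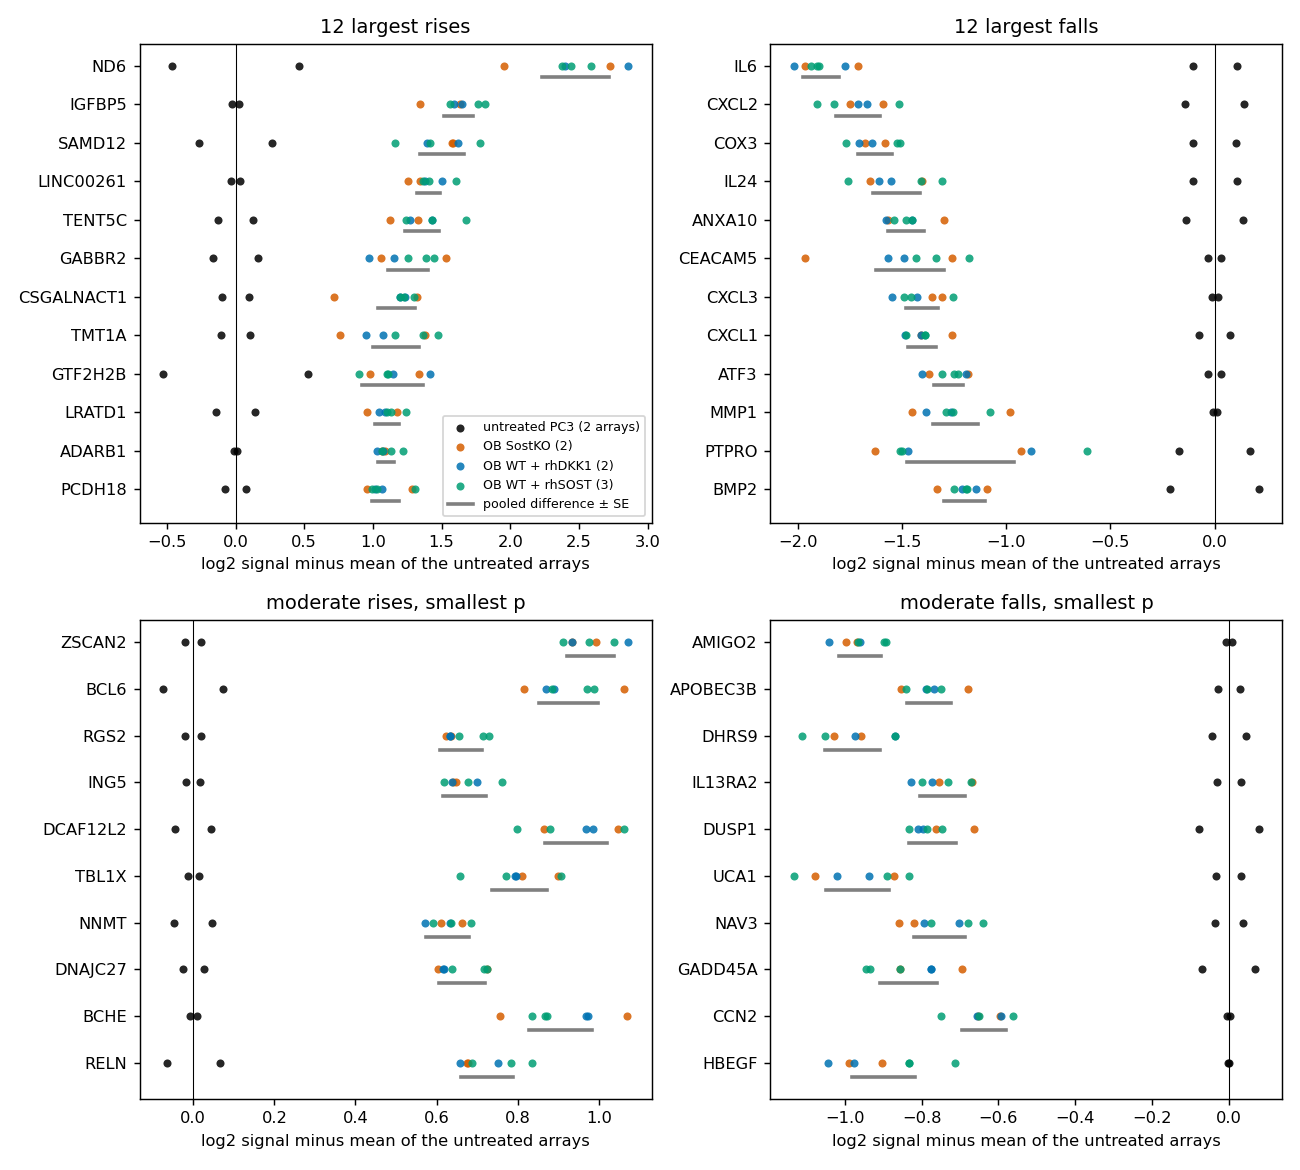
Log2 signal of single arrays relative to the mean of the untreated arrays (x axis) for the 12 largest rises and falls (top) and for the 10 moderate changes common to every co-culture with the smallest p in each direction (bottom); grey bars are the pooled difference ± SE. The genes were chosen among those whose groups do not overlap, so the gap is part of the choice, and the untreated arrays lie farthest apart for GTF2H2B and ND6.

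Of the 12 largest falls, 5 were cytokines or chemokines: IL6, CXCL1, CXCL2, CXCL3 and IL24. The IL6 log2 signal was 9.90 and 10.12 on the untreated arrays and between 7.99 and 8.30 with a median of 8.10 on the co-culture arrays, a difference of -1.89 (SE 0.09, 3.7-fold, adjusted p = 6.23e-06). The CXCL1 signal was 12.82 and 12.97 alone and between 11.41 and 11.64 with a median of 11.49 with osteoblasts, a fall by 1.40 on the log2 scale (SE 0.07, 2.65-fold, adjusted p = 6.23e-06). The largest falls were chosen among genes without overlap of arrays. CXCL2 had 9.88 and 10.16 alone and between 8.11 and 8.51 with a median of 8.31 with osteoblasts (3.27-fold, adjusted p = 1.28e-05), and its probe set can also match its paralogs. CXCL3 had 9.39 and 9.36 alone and between 7.83 and 8.12 with a median of 7.95 with osteoblasts (2.65-fold, adjusted p = 7.81e-06). The promoters printed above belong to these 4 genes. CXCL8, the neutrophil chemokine also called interleukin 8, fell less, with a log2 difference of -0.57 (SE 0.07, 1.49-fold, adjusted p = 0.000609). IL24, a cytokine of the IL10 family, differed by -1.53 (SE 0.11, 2.88-fold, adjusted p = 5.96e-05).

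Of 35 NF-κB targets and cytokines listed, 30 were measured, and 19 fell (63.3%) while 0 rose, with a median log2 difference of -0.54 where that of all genes tested was near 0. The medians were -0.64 for OB SostKO, -0.54 for the rhDKK1 arrays and -0.52 for the rhSOST arrays, all against the same untreated arrays. Signal transducers and feedback inhibitors fell with the ligands. IRAK2, a kinase that carries interleukin 1 and Toll-like receptor signals, was 9.43 and 9.26 alone and between 8.21 and 8.34 with a median of 8.34 with osteoblasts, a difference of -1.05 (SE 0.06, 2.08-fold, adjusted p = 1.2e-05). TNFAIP3, a deubiquitinase that restrains NF-κB, differed by -1.14 (SE 0.10, 2.2-fold, adjusted p = 0.000169), and the inhibitor NFKBIA by -0.92 (SE 0.17, 1.9-fold, adjusted p = 0.00665). RELB, a subunit of the noncanonical pathway, fell by 0.89, and NFKB1, the precursor of the p50 subunit, by 0.17 (adjusted p = 0.0479). The remaining members that fell were CXCL5 and CXCL6, IL1B, IL23A, NFKBIZ, the adhesion receptor ICAM1, TRAF1 and the prostaglandin synthase PTGS2. Of the 11 that did not pass, 8 lay below 0, among them LIF at -0.30 and CCL20 at -0.25, while IL11 had 0.23 and SOD2 0.33. The mean signal of the list was 8.96 and 9.01 on the untreated arrays and 8.31 to 8.42 on the co-culture arrays. The number that fell was 14 and 15 without untreated array 1 and 2, 21 without rhSOST array 3 and 19 with 18S signal as a covariate. The list was drawn up with earlier results of these arrays known.

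**Figure D3:**
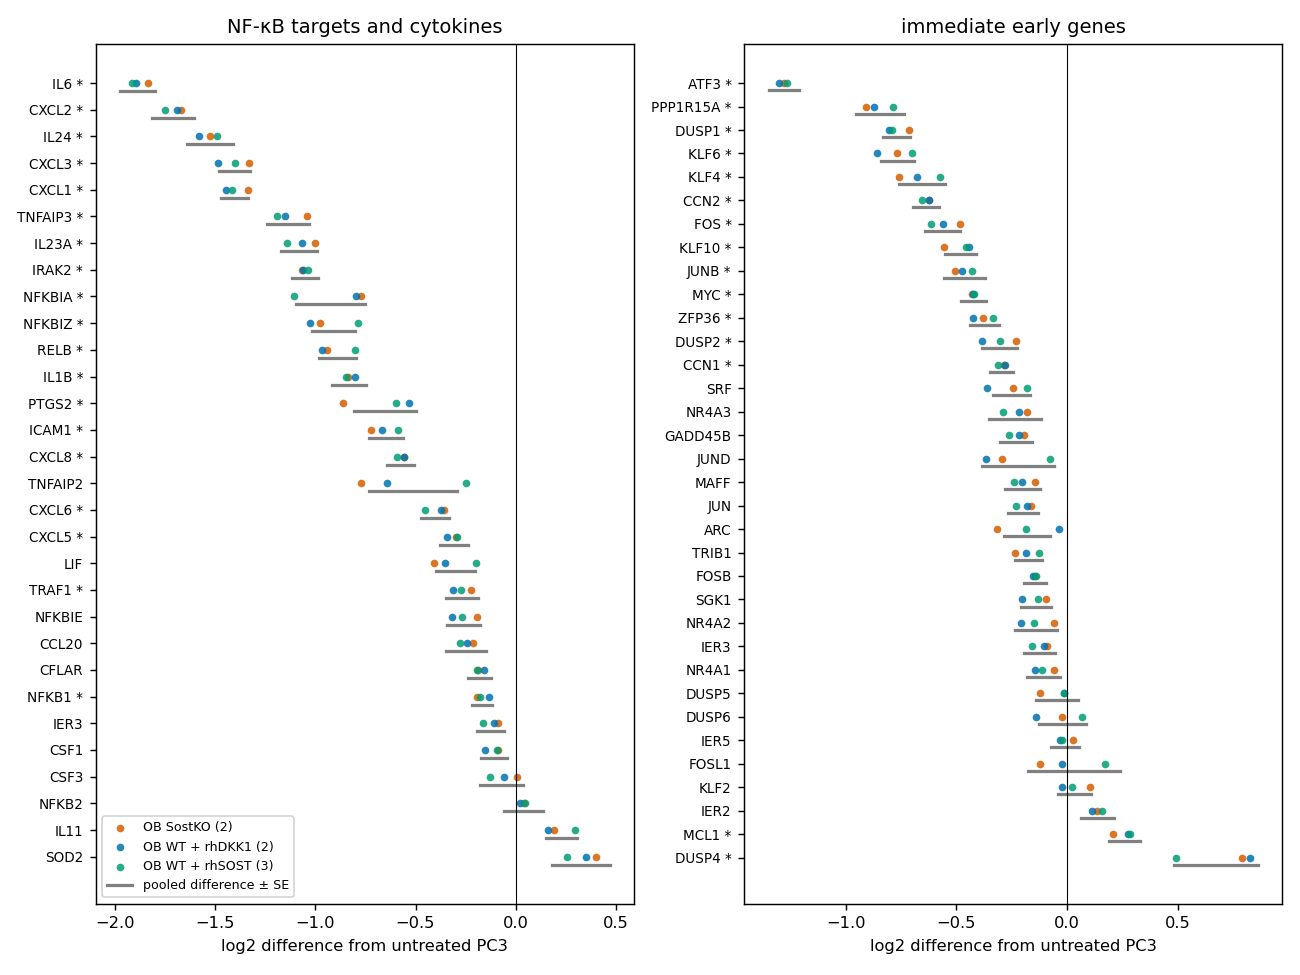
Log2 difference from untreated PC3 cells of every measured member of the NF-κB list (left, 30 genes) and of the immediate early genes (right, 34 genes); points are the means of the 3 co-cultures, grey bars the pooled difference ± SE, and asterisks mark an adjusted p under 0.05. On the left 19 members fell and 0 rose; on the right 13 fell and 2 rose.

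Immediate early genes fell in part. Of 34 measured, 13 fell (38.2%) and 2 rose, DUSP4 and MCL1, with a median log2 difference of -0.21. ATF3, a stress-induced transcription factor, was 9.19 and 9.25 alone and between 7.82 and 8.04 with a median of 7.97 with osteoblasts, a difference of -1.28 (SE 0.07, 2.42-fold, adjusted p = 7.81e-06), with -1.28 to -0.18 over its 3 probe sets. DUSP1, a phosphatase that switches off MAP kinases, was 10.49 and 10.64 alone and between 9.73 and 9.90 with a median of 9.78 with osteoblasts (1.71-fold lower, adjusted p = 8e-05), with -0.77 to -0.08 over its 3 probe sets. KLF6, a zinc finger transcription factor, fell by 0.76, and CCN2, a matrix-bound growth regulator, by 0.64. The AP-1 members FOS and JUNB had -0.56 and -0.46, while JUN, FOSB and FOSL1 had -0.20, -0.15 and 0.03 and did not pass. All arrays were apart for the 13 genes that fell and overlapped for DUSP4, whose adjusted p was 0.0402. The arrays were also apart for 799 of all 812 genes that fell, and 11.3% of all genes tested lay wholly below. The call of JUNB was lost without untreated array 2, where it had -0.41 (adjusted p = 0.0739). The 2 rises were lost without either untreated array, and 12 and 10 members fell without untreated array 1 and 2.

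Of 11 ligands, receptors and regulators of the EGF family, HBEGF and ERRFI1 fell. HBEGF, a ligand shed from the membrane, was 10.30 and 10.31 alone and between 9.26 and 9.59 with a median of 9.40 with osteoblasts (1.86-fold lower, adjusted p = 0.000169), with -0.90 to 0.04 over its 4 probe sets. ERRFI1, a feedback inhibitor of EGFR, fell by 0.45. EGFR itself had -0.37 (adjusted p = 0.488) and TGFA -0.27 (adjusted p = 0.109). Of 17 ERK targets, SPRY2 fell and DUSP4 and ETV1 rose, and neither rise was called without untreated array 1 or without untreated array 2.

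Of 20 genes of BMP signaling, 4 fell and 3 rose. BMP2, a bone morphogenetic protein, was 5.86 and 5.43 alone and between 4.31 and 4.55 with a median of 4.45 with osteoblasts, a difference of -1.20 (SE 0.10, 2.3-fold, adjusted p = 9.16e-05). Its signal is low, and its 2 probe sets had -1.20 to -0.57. It passed the filter only through the untreated arrays, where it is high, and was measured in 19 of 23 alternatives. Without rhDKK1 array 2 the other probe set was the brightest and stood for the gene, with -0.54 (adjusted p = 0.0734). ID3, a BMP-induced inhibitor of helix-loop-helix factors, was 10.33 and 10.25 alone and between 9.28 and 9.70 with a median of 9.46 with osteoblasts (1.76-fold lower, adjusted p = 0.00051). NOG, a secreted BMP antagonist, fell by 0.81 (adjusted p = 0.00104), and BMP4 by 0.32, a call that was lost without untreated array 1, with -0.35 (adjusted p = 0.064), and without untreated array 2, with -0.29 (adjusted p = 0.0753). The receptor BMPR1B, the transducer SMAD1 and the antagonist GREM1 rose by 0.48, 0.33 and 0.32, and 0 and 1 genes of the list rose without untreated array 1 and 2.

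Of 21 targets of Wnt/β-catenin signaling, the pathway whose co-receptors sclerostin and DKK1 bind, 5 fell and 1 rose, with a median of -0.06. The pool joins arrays with rhDKK1, with rhSOST and with OB SostKO, so it does not measure the effect of either protein on this pathway. The falls were PPARD, a nuclear receptor, with -0.52, the growth regulator MYC with -0.42, BMP4, ASCL2 and NKD1, and the rise was NKD2 with 0.29. AXIN2, the usual feedback target, had 0.12 (SE 0.08, adjusted p = 0.336). The count that fell was 2 without untreated array 1 and 4 without untreated array 2. Of 18 TGFβ targets, 5 fell and 0 rose, among them SMAD7, a feedback inhibitor, with -0.66 and TPM1 with -0.24, and 3 fell without either untreated array. Without untreated array 1 TPM1 had -0.16 (adjusted p = 0.243). SMAD7 had -0.57 (adjusted p = 0.0669) without untreated array 2. Of 19 YAP/TAZ targets, CCN1, CCN2 and GADD45A fell and NT5E and TEAD1 rose. CCN1 and CCN2 also count among the immediate early falls, as do CCN2 and JUNB of the TGFβ targets. GADD45A, a growth arrest protein induced by DNA damage, was 12.38 and 12.52 alone and between 11.51 and 11.75 with a median of 11.59 with osteoblasts (1.78-fold lower, adjusted p = 0.000147). The cell cycle inhibitor CDKN1A fell by 0.81 (SE 0.08, adjusted p = 0.000182), and CDKN1C, another inhibitor of cyclin-dependent kinases, rose by 0.64 (SE 0.08, adjusted p = 0.001), with 0.07 to 0.64 over its 4 probe sets.

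Among the 12 largest rises, IGFBP5, which binds insulin-like growth factors in bone matrix, was 8.16 and 8.21 alone and between 9.53 and 10.004 with a median of 9.82 with osteoblasts, a difference of 1.62 (SE 0.10, 3.08-fold, adjusted p = 1.57e-05). Its 6 probe sets had 0.80 to 1.74. Of the 15 genes of IGF binding and reception, the insulin receptor INSR and its substrate IRS1 also rose, by 0.42 and 0.25, and 0 fell. Of the 15, 1 rose without untreated array 1. LINC00261, a long noncoding RNA, was 6.93 and 6.86 alone and between 8.15 and 8.4996 with a median of 8.27 with osteoblasts (2.65-fold higher, adjusted p = 1e-05). PCDH18, a protocadherin, was 6.22 and 6.07 alone and between 7.11 and 7.45 with a median of 7.18 with osteoblasts (2.13-fold higher, adjusted p = 0.000169). The 12 genes were chosen among those without overlap of arrays. SAMD12 rose by 1.502, GABBR2, a subunit of the GABA B receptor, by 1.26, CSGALNACT1, which starts chondroitin sulfate chains, by 1.17, TMT1A, a thiol methyltransferase, by 1.17 and LRATD1 by 1.10. Probe sets disagreed for some of these, with -0.20 to 1.17 for TMT1A, -0.11 to 1.71 for LRATD1, 0.14 to 1.26 for GABBR2 and 0.09 to 1.09 for PCDH18. GTF2H2B, a copy of a transcription factor subunit gene with close relatives, had 1.14, and 0.61 (adjusted p = 0.078) without untreated array 1.

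The moderate rises with the smallest p included regulators of transcription and signaling. ZSCAN2, a zinc finger protein, was 6.21 and 6.25 alone and between 7.14 and 7.30 with a median of 7.21 with osteoblasts (1.97-fold, adjusted p = 1e-05). BCL6, a transcriptional repressor, was 7.86 and 8.01 alone and between 8.76 and 9.0002 with a median of 8.83 with osteoblasts (1.9-fold, adjusted p = 6.94e-05). RGS2, which shortens G protein signals, was 10.36 and 10.32 alone and between 10.96 and 11.07 with a median of 10.98 with osteoblasts (1.58-fold, adjusted p = 6.94e-05). For RGS2 the 3 co-cultures had log2 differences of 0.63, 0.63 and 0.70 with OB SostKO, rhDKK1 and rhSOST, and for BCL6 0.94, 0.88 and 0.95. ING5, a reader of histone methylation, rose by 0.67, TBL1X, a corepressor subunit, by 0.80, NNMT, which methylates nicotinamide, by 0.63, and the secreted glycoprotein RELN by 0.72. DCAF12L2, DNAJC27 and BCHE, a cholinesterase, rose by 0.94, 0.66 and 0.91. The mean of the probe sets of ING5 and of TBL1X did not pass, with 0.10 (adjusted p = 0.279) and 0.54 (adjusted p = 0.0776), and the 2 probe sets of ZSCAN2 had 0.02 to 0.98.

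The moderate falls with the smallest p included an adhesion protein, a cytokine receptor and a retinol enzyme. AMIGO2, a cell adhesion protein, was 11.43 and 11.42 alone and between 10.38 and 10.53 with a median of 10.46 with osteoblasts (1.95-fold, adjusted p = 9.04e-06). IL13RA2, the decoy receptor of interleukin 13, was 9.99 and 9.93 alone and between 9.13 and 9.29 with a median of 9.20 with osteoblasts (1.68-fold, adjusted p = 6.94e-05). DHRS9, a retinol dehydrogenase, was 8.69 and 8.78 alone and between 7.62 and 7.86 with a median of 7.76 with osteoblasts (1.97-fold, adjusted p = 5.93e-05). In AMIGO2 the co-cultures had log2 differences of -0.98, -1.0005 and -0.92, and in IL13RA2 -0.71, -0.80 and -0.73. The long noncoding RNA UCA1 fell by 0.97 and NAV3, a microtubule-binding protein, by 0.75. Larger falls were those of ANXA10, an annexin, with -1.48 (SE 0.09, 2.79-fold, adjusted p = 1e-05), CEACAM5, an adhesion molecule of epithelia, with -1.46 (SE 0.16, 2.76-fold, adjusted p = 0.00048) and -1.46 to -0.17 over its 2 probe sets, and MMP1, a collagenase, with -1.24 (SE 0.11, 2.37-fold, adjusted p = 0.000143). PTPRO, a receptor phosphatase, fell by 1.22 with the widest error of the 12 largest falls (SE 0.25, co-culture arrays between 9.53 and 10.54 with a median of 9.69), and had -1.39 (adjusted p = 0.0586) without untreated array 1 and -1.05 (adjusted p = 0.0974) without untreated array 2.

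Genes that edit or tail RNA changed in both directions. Of 21 measured, 5 rose (23.8%) and 1 fell, with a median of 0.14. ADARB1, an enzyme that turns adenosine into inosine in double-stranded RNA, was 7.13 and 7.10 alone and between 8.15 and 8.33 with a median of 8.19 with osteoblasts, a difference of 1.10 (SE 0.06, 2.14-fold, adjusted p = 7.5e-06). Its paralog ADAR had -0.01 (adjusted p = 0.977), and the 4 probe sets of ADARB1 had -0.07 to 1.10. TENT5C, a cytoplasmic poly(A) polymerase, was 6.53 and 6.79 alone and between 7.78 and 8.34 with a median of 7.98 with osteoblasts (2.56-fold, adjusted p = 0.000176), with 0.26 to 1.36 over 2 probe sets. The other rises were TENT5A, PAPOLG and CNOT6. APOBEC3B, a cytidine deaminase, was 10.502 and 10.56 alone and between 9.68 and 9.85 with a median of 9.75 with osteoblasts, a fall of 1.72-fold (adjusted p = 5.93e-05). Without untreated array 1 and 2, 2 and 3 of these genes rose.

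Transcripts of the mitochondrial genome differed in sign. ND6, a complex I subunit and the protein gene that lies on the light strand, was 7.57 and 6.64 alone and between 9.06 and 9.96 with a median of 9.54 with osteoblasts, the largest rise, with a difference of 2.48 (SE 0.24, 5.56-fold, adjusted p = 0.000227). COX3, a cytochrome oxidase subunit of the heavy strand, was 9.34 and 9.14 alone and between 7.47 and 7.73 with a median of 7.59 with osteoblasts, a difference of -1.63 (SE 0.08, 3.1-fold, adjusted p = 6.23e-06). COX1 fell by 0.65 (adjusted p = 0.00137), ATP6 by 0.80 (adjusted p = 0.0227) and ND2 by 0.63 (adjusted p = 0.022). COX2 and ND4 had -0.19 and -0.37 and did not pass. Of 43 nuclear-encoded subunits of the respiratory chain, 0 rose and 0 fell, with a median of 0.01. The COX3 probe set can match other sequences, ND2 had -0.66 (adjusted p = 0.124) without untreated array 1, and 2 of the 4 falls passed with 18S signal as a covariate or without either untreated array.

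Zinc finger genes were the list with the largest share of rises. Of 86 listed, 82 lie on chromosome 19, 63 were measured and 20 rose (31.7%) while ZNF93 fell, with a median log2 difference of 0.23. ZNF14 was 6.73 and 6.93 alone and between 7.80 and 8.03 with a median of 7.85 with osteoblasts, a difference of 1.07 (SE 0.08, 2.09-fold, adjusted p = 6.71e-05). ZNF420 was 7.10 and 7.21 alone and between 7.80 and 8.07 with a median of 7.82 with osteoblasts (1.64-fold, adjusted p = 0.000417). ZNF823 and ZNF700 rose by 0.74 and 0.54, and all 4 had no overlap of arrays, as had 1280 of all 1305 genes that rose. The medians of the list were 0.22 for OB SostKO, 0.24 for the rhDKK1 arrays and 0.20 for the rhSOST arrays, and 52 of the 63 members lay above 0. The mean signal of the list was 7.07 and 7.08 on the untreated arrays and 7.23 to 7.35 on the co-culture arrays. In the list, 8 of the 20 rises were read by probe sets that can match other transcripts, as were 25 of the 63 members. Without untreated array 1, 9 rose, without untreated array 2, 12 rose and 3 fell, without rhSOST array 3, 24 rose, and 18 rose with 18S signal as a covariate.

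The pattern was then counted over every gene with a ZNF symbol, a set chosen after the values were seen. Of 375, 78 (20.8%) rose and 5 fell. On chromosome 19, 44 of 171 rose (25.7%, median 0.13), and elsewhere 34 of 204 (16.7%, median 0.10). Of the other genes of chromosome 19, 43 of 901 rose (4.77%) and 59 fell (6.55%). Genes with middling signals rose most often in general. With genes cut by mean log2 signal into 5 bins of equal size, 4.03% rose in the lowest bin, 12.2% in the middle one and 7.36% in the highest. The median ZNF gene on chromosome 19 had a log2 signal of 7.26, in bin 2, where 9.89% rose.

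**Figure D4:**
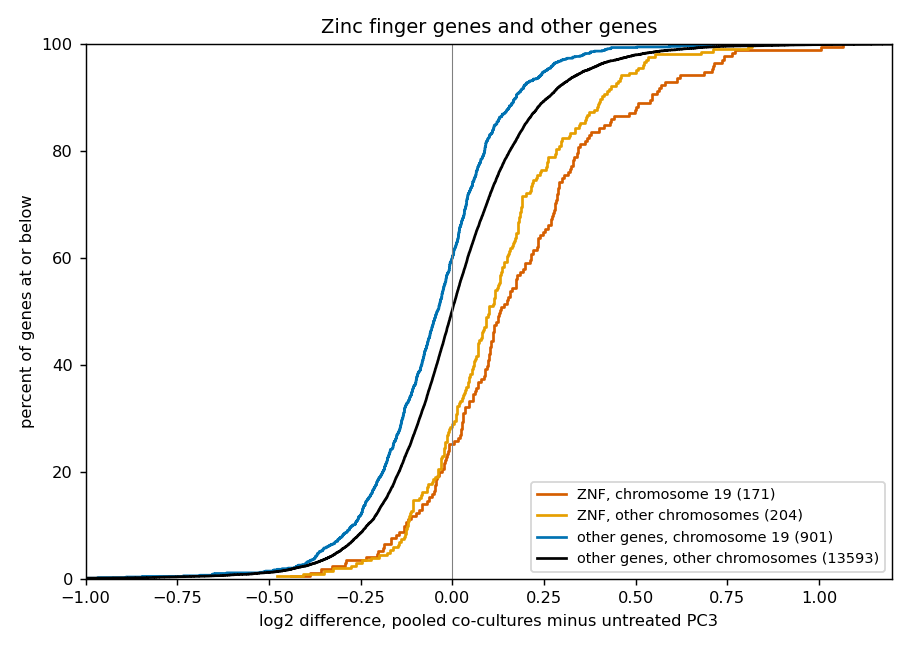
Cumulative percent of genes (y axis) by log2 difference between pooled co-cultures and untreated PC3 cells (x axis) for zinc finger genes with a ZNF symbol and all other genes, on chromosome 19 and on the other chromosomes. The ZNF curves have medians of 0.13 and 0.10, while the other genes of chromosome 19 have a median of -0.04.

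Of 18 NRF2 targets, which detoxify oxidants and xenobiotics, 5 fell and 0 rose, each of them a moderate change common to every co-culture. AKR1C3, an aldo-keto reductase that makes testosterone from androstenedione, was 9.75 and 9.56 alone and between 8.91 and 9.13 with a median of 9.02 with osteoblasts (1.54-fold, adjusted p = 0.000618). AKR1C2 and AKR1C1, whose sequences are nearly alike, fell by 0.70 and 0.49 (the 3 probe sets of AKR1C1 had -0.63 to 0.02), and HMOX1, which breaks down heme, was 8.01 and 7.98 alone and between 7.51 and 7.61 with a median of 7.57 with osteoblasts (1.34-fold, adjusted p = 0.000651). PGD of the pentose phosphate pathway fell by 0.40. Of 10 genes of aryl hydrocarbon receptor signaling, 3 fell: CYP1B1, which oxidizes estrogens and xenobiotics, with -1.06 (SE 0.09, 2.08-fold, adjusted p = 0.000107), TIPARP with -0.42 and ALDH3A1 with -0.50. The receptor AHR had -0.15 and CYP1A1 -0.21, neither of which passed. ALDH3A1 had -0.35 (adjusted p = 0.186) without untreated array 2, and 4 NRF2 targets fell without either untreated array.

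Calcium-binding S100 proteins and annexins fell in 8 of 22 cases (36.4%) and rose in none, with a median of -0.18. S100A2 was 12.72 and 12.53 alone and between 11.64 and 11.93 with a median of 11.82 with osteoblasts (1.79-fold, adjusted p = 0.000227), and S100A4, linked to motility, was 9.96 and 9.59 alone and between 8.93 and 9.20 with a median of 9.02 with osteoblasts (1.66-fold, adjusted p = 0.001). S100A3, S100A9, S100A14, S100P and ANXA3 fell by 0.46 or less, beside ANXA10 above. The count was 3 without untreated array 1 and 7 without untreated array 2. Of 17 epithelial-mesenchymal transition genes, ZEB1, TCF4, TWIST1 and TWIST2, all transcription factors, rose and SNAI2 and S100A4 fell, and 2 rose and 1 fell without untreated array 1. ZEB1, a repressor of CDH1, was 8.03 and 7.93 alone and between 8.53 and 8.69 with a median of 8.61 with osteoblasts (1.55-fold, adjusted p = 0.000219), though the mean of its 3 probe sets had 0.40 (adjusted p = 0.1). CDH1 and VIM themselves had -0.03 (adjusted p = 0.86) and 0.17 (adjusted p = 0.103). TWIST2 had 0.56, and 0.28 (adjusted p = 0.0974) without untreated array 2.

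Of 31 invasion proteases and protease inhibitors, 5 fell and 1 rose. Beside MMP1 these were ST14, a membrane serine protease, with -0.37 (adjusted p = 0.00433), ADAMTS1 with -0.39 (adjusted p = 0.00456), PLAUR, the urokinase receptor, with -0.30 and TIMP4 with -0.39, and the inhibitor TIMP2 had 0.24 (adjusted p = 0.0495). PLAUR had -0.19 (adjusted p = 0.171) without untreated array 1, and the mean of the probe sets of ADAMTS1 had -0.22 (adjusted p = 0.0539). Of 31 collagens and laminins, 4 rose (12.9%) and 1 fell (3.23%), where 8.78% of all genes tested rose and 5.46% fell. COL8A1, a short-chain collagen, was 4.56 and 4.33 alone and between 5.16 and 5.63 with a median of 5.34 with osteoblasts (1.88-fold, adjusted p = 0.000681). It passed the filter only through the co-culture arrays, where it is high, and both untreated signals lay below the filter. COL3A1 also lay close to the filter, with means of 4.76 on the untreated and 5.11 on the co-culture arrays. COL13A1, COL5A2 and COL3A1 had 0.41, 0.55 and 0.35, and 1 of the 4 rises was called without untreated array 1. Of 51 genes of actin and filopodia, 8 fell and 3 rose, and of 29 integrins and matrix adhesion genes ITGAV, FERMT1 and FERMT2 fell. ITGAV, an integrin subunit for vitronectin, fell by 0.45 (adjusted p = 0.0103). Without untreated array 1 these counts were 2 and 2 for actin genes and 0 falls for integrins. Of 36 junction genes, CDH11, PCDH18 and NECTIN2 rose and CEACAM5 and CLDN7 fell. NECTIN2 had 0.24 but turned to below 0 in 7 of 23 alternatives, with -0.087 the lowest, and its 4 probe sets had -0.33 to 0.24. These alternatives averaged its probe sets or chose the brightest anew with arrays left out. The main probe set had 0.22, 0.26 and 0.26 with OB SostKO, rhDKK1 and rhSOST.

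Some genes of mitosis rose by small amounts. Of 39, 7 rose (17.9%) and 0 fell, with a median of 0.10. AURKA, a kinase of the spindle poles, was 11.87 and 11.96 alone and between 12.12 and 12.35 with a median of 12.21 with osteoblasts (1.22-fold, adjusted p = 0.0158), and KIF2C, a microtubule depolymerase, was 10.82 and 11.09 alone and between 11.22 and 11.40 with a median of 11.27 with osteoblasts (1.28-fold, adjusted p = 0.0153). None of the 7 was called without untreated array 1, where AURKA had 0.25 (adjusted p = 0.158), and 5 were called without untreated array 2. Of 39 genes of DNA replication, 3 rose (7.69%) and 2 fell (5.13%), near the shares over all genes tested, with a median of 0.01. Interferon-stimulated genes went both ways, with 6 that fell and 3 that rose among 28. The transcription factor IRF1 fell by 0.68 (adjusted p = 0.000528) and OASL, a relative of the RNA sensors, by 0.70 (adjusted p = 0.00174), while HERC5, a ligase for ISG15, rose by 0.69 (adjusted p = 0.000257). The number that fell was 2 and 3 without untreated array 1 and 2.

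In fatty acid oxidation 5 of 21 genes rose (23.8%) and 2 fell (9.52%), where 8.78% of all genes tested rose and 5.46% fell. In fatty acid synthesis 1 of 18 rose (5.56%) and 2 fell (11.1%), and in cholesterol synthesis 3 of 19 rose (15.8%). CPT2, which frees acyl groups from carnitine in mitochondria, rose by 0.43 (adjusted p = 0.00658), and had 0.35 (adjusted p = 0.0696) without untreated array 2. FDPS, which makes farnesyl diphosphate, rose by 0.39 (adjusted p = 0.00514), and had 0.35 (adjusted p = 0.0506) without untreated array 2. Hypoxia and glycolysis genes had 3 rises and 3 falls among 35 (8.57% each), and ADM, a vasodilator peptide, fell by 0.58 (adjusted p = 0.000295). Of 31 ATF4 targets 5 fell and 1 rose, led by PPP1R15A, a phosphatase subunit, with -0.84 (SE 0.11, 1.8-fold, adjusted p = 0.000957). Among 16 heat shock genes the co-chaperone BAG3 rose by 0.42 (adjusted p = 0.000468), HSPA4 rose by 0.19 and STIP1 fell by 0.46, with 0.13 (adjusted p = 0.308) and -0.38 (adjusted p = 0.315) without untreated array 1. Of 10 metallothioneins and zinc genes MT1M and SLC30A1 rose, 1 of them without either untreated array. SLC30A1 had 0.26, and its 2 probe sets had -0.30 to 0.26 with a mean of -0.021. Without untreated array 1 and 2, 2 and 1 genes of fatty acid oxidation rose, 0 and 0 of hypoxia and glycolysis, 1 and 1 of cholesterol synthesis, and 2 and 2 ATF4 targets fell.

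Over all genes 8.78% rose and 5.46% fell. Of 46 cytosolic ribosomal proteins 1 rose, of 29 genes of ribosome biogenesis 1 rose and 2 fell, of 27 proteasome subunits 3 fell (11.1%, and 0 without either untreated array), and of 21 genes of the unfolded protein response 1 fell. Splicing regulators had 3 rises and 3 falls among 42 (7.14% each), among them SRSF5 with -0.50, which became 0 and 1 without untreated array 1 and 1 and 3 without untreated array 2. Histones had 1 and 1 among 15 (6.67% each), and lysosome and autophagy genes 1 rise and 2 falls among 31, with SQSTM1, an autophagy receptor, at -0.72. SQSTM1 had -0.78 to -0.18 over 23 alternatives and lost its call in 1 of them. Among 13 cell cycle inhibitors 1 rose and 2 fell, and among 9 keratins 1 rose, KRT15, and 2 fell (22.2%), KRT7 and KRT10. Of 9 androgen-dependent prostate markers, HOXB13 rose by 0.48, FKBP5 by 0.28 and STEAP2 fell by 0.29, and STEAP2 had -0.29 without untreated array 1. FKBP5 had 0.03 to 0.34 over 23 alternatives, and FKBP5 and STEAP2 lost their calls in 3 and 12 of them. Without untreated array 2 neither of the rises was called. Of 17 genes of growth arrest and DNA damage, GDF15 and XPC rose and CDKN1A, FAS, PLK2 and PLK3 fell (23.5%), and 2 and 1 fell without untreated array 1 and 2.

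**Figure D5:**
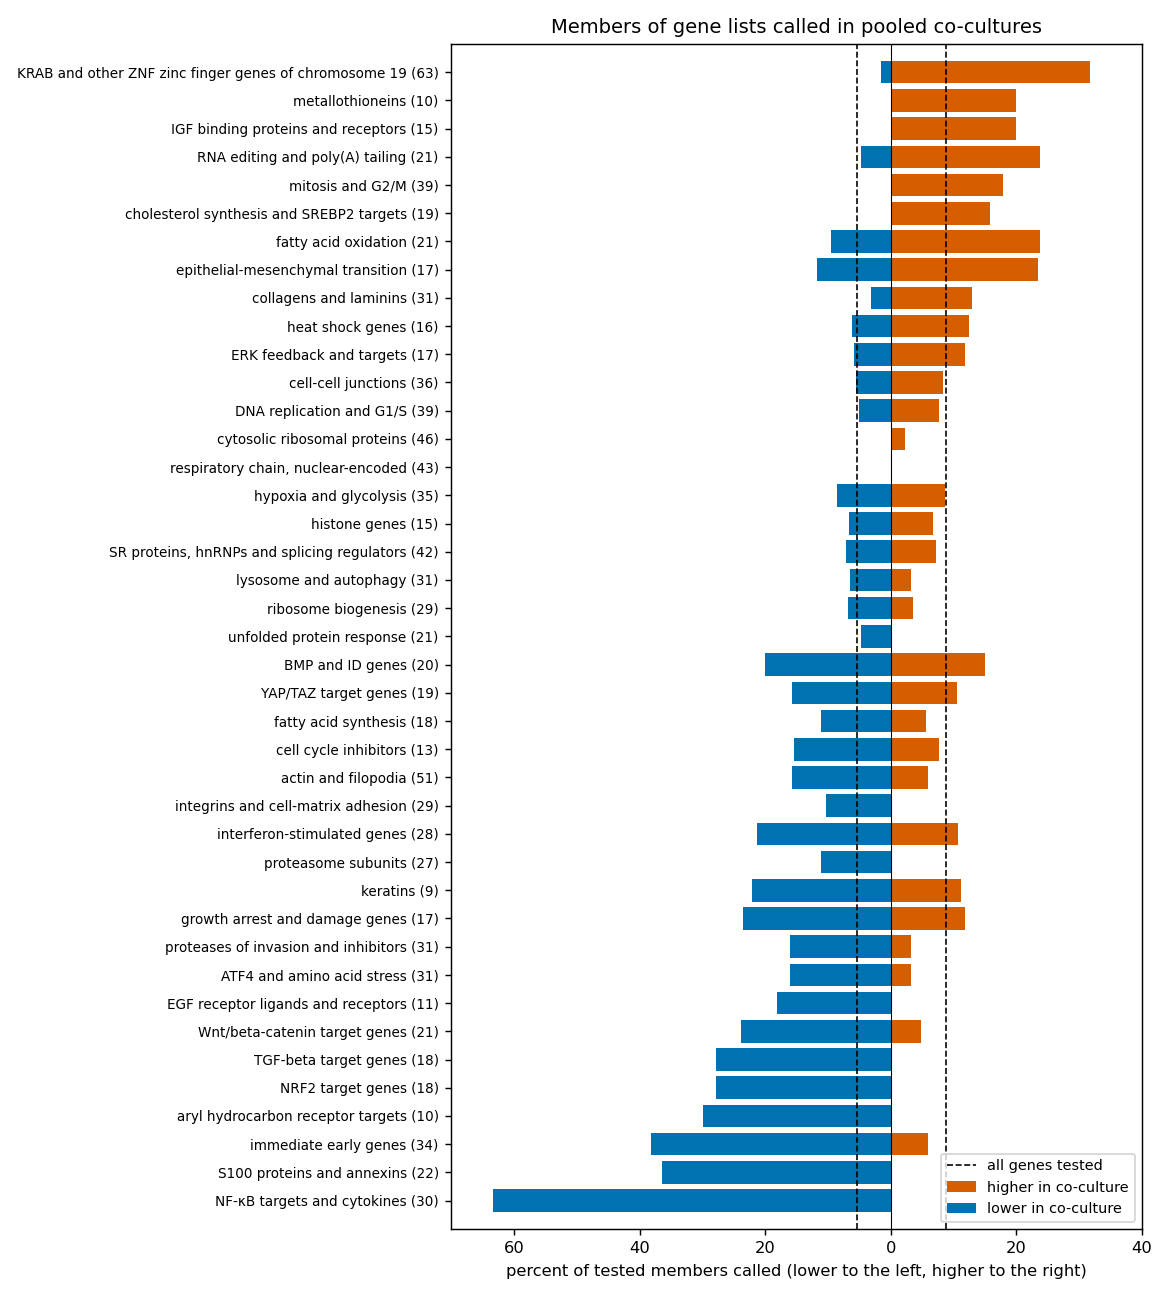
Percent of measured members called higher (right) or lower (left) in pooled co-cultures for each gene list with at least 9 measured members, marker lists left out, with that number in parentheses; dashed lines mark the shares over all genes tested, 8.78% and 5.46%. The NF-κB list has the largest share of falls among those drawn, 63.3%, and the zinc finger list the largest share of rises, 31.7%.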

How the data were processed

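RNA of 9 PC3 cultures (500 ng of total RNA each) was measured on 1-color Affymetrix U133 Plus 2.0 arrays. Per the submitters' processing notes the authors normalized with RMA, which corrects background, quantile-normalizes and summarizes probe sets; the version and software are not given in the sources used here. Values were deposited as log2 signals with 1 column per array, and no column of other samples was present (0). Groups were taken from the labels.

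The arrays hold 54675 probe sets; without the 62 controls, 54613 were tested. For genes, a probe set had to lie at or above the 40th percentile on 2 arrays or more (33985 did), of which 28257 had 1 symbol, 1308 several and 4420 none. Symbols were updated to RefSeq names (GRCh38.p14), and the brightest kept probe set stood for each of 14869 genes. The pooled co-cultures were compared with untreated PC3 cells in limma 3.58.1 (lmFit and eBayes; R 4.3.3 with the data.table package, version 1.17.8) with Benjamini-Hochberg adjustment over all genes and a threshold of 0.05. SE are those of limma. The low number of arrays, above all the 2 untreated ones, limits the precision, and where nothing more is said of separate cultures the p-values measure the spread between these arrays. Controls were compared by exact permutation over arrays. The procedure was tested on simulated data.

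The members and 48 gene lists were chosen with earlier results of these data known. Named are the 12 largest rises and falls among called genes without overlap of arrays, the 10 moderate common changes with the smallest p in each direction, up to 4 called members of each list, and the genes whose promoters are printed. Further list members, and the ZNF symbols as a set, were named after their values were seen. Promoter windows were found for 79.7% of the genes tested and for 77.1% of those that fell, so a share of motifs over all called genes is void and not given. Alternatives were other filters (60th percentile, mean, none), cyclic loess, the mean of the probe sets of a gene and equally weighted groups. Others were condition or replicate number as a block, a trended prior, stricter thresholds, and arrays or co-cultures left out. A one-way ANOVA compared the pooled co-cultures with the untreated arrays without limma's moderated variance. Runs with arrays left out applied the filter and chose the brightest probe set of each gene anew. The 18S covariate and the list counts without rhSOST array 3 were chosen after seeing the data. Some items are not reported here.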

Additional observations from a re-analysis of the deposited data

Results flagged for a closer look

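Among 7 co-culture arrays, the gap of the highest or lowest array to its neighbor was set against the whole range for 49 measures, 44 of them named genes, and it passed Dixon's critical ratio for 7 values in 5. Chance passes about 1 in 20 groups of unselected values. The genes were chosen for arrays without overlap, some of them for a small p, so this rate need not hold for them. In 1 gene, CSGALNACT1, OB SostKO array 1 had a log2 signal of 6.63 where the other arrays had 7.11 to 7.23 (ratio 0.797). The other 4 were array controls. The poly-A controls were highest on rhSOST array 2, at 7.22 against 6.38 to 6.71 (ratio 0.604). The 18S rRNA signal was lowest on rhSOST array 3, at 8.71 against 12.94 to 13.19 (ratio 0.945). The ACTB 3′ minus 5′ signal was highest on rhSOST array 1, at 2.06 against 0.99 to 1.44 (ratio 0.582), and that of GAPDH on rhSOST array 3, at 0.42 against 0.12 to 0.21 (ratio 0.677). The part of these arrays in the gene results was measured only by leaving them out.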

How the results depend on the processing

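Leaving out 1 array at a time gave 426 to 1711 genes that rose and 265 to 1249 that fell, 400 to 1005 and 245 to 661 moderate common changes, and 519 to 3461 and 436 to 2380 probe sets; the lowest counts were those without untreated array 1, where the lone untreated array is assumed to vary like the other groups. Without both rhDKK1 arrays 706 genes rose and 382 fell (probe sets 715 and 526), and without both SostKO arrays 1392 and 902 probe sets. An adjusted p under 0.01 left 538 and 294 genes (588 and 399 probe sets), a 2-fold minimum 18 and 16 genes (83 and 51 probe sets), and 1.5-fold in each co-culture 87 and 65 common changes. For probe sets, equally weighted groups gave 1255 and 867, condition as a random block 3207 and 2597 (consensus correlation -0.129), and the 18S covariate 876 that fell. The cause of these shifts was not tested. With the replicate number as a replicate block, 1559 genes rose and 1075 fell, with 791 and 481 moderate common changes. Deviations from the group mean correlated at -0.57 to 0.313 between same-numbered arrays of different groups, over 0.1 in 4 of 12 pairs. In a group of 2 arrays the deviations mirror each other, so the 12 values are not separate. They cannot show whether arrays were prepared in pairs or batches under other numbers. Counts of genes under the other filters, cyclic loess (1206 and 1065), ANOVA, trend and 18S settings stayed within 1.5 times. The test among co-cultures gave 0 genes in each alternative run.

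Of 168 named genes, 80 kept direction and call in all alternatives and 4 changed sign in any. With the mean of the probe sets SLC30A1 had -0.0213, SRSF6 0.0922 and NECTIN2 -0.0404. NECTIN2 had -0.0868 to 0.275 with 1 array left out, -0.0753 without both SostKO and -0.0511 without both rhDKK1 arrays. ACACB had -0.0628 without the rhSOST arrays, in a run that chose the brightest probe set anew. Its main probe set had 0.51, 0.49 and 0.54 with OB SostKO, rhDKK1 and rhSOST. The 5 probe sets of ACACB had -0.04 to 0.53, so the -0.0628 is not a value of the main probe set. The sign changes were not tested further. Signal over background limits genes near the filter.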
